A study of Mus musculus with 8 samples.

Results

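The genes described here encode the integrins, their cell-surface ligands and the proteins that switch integrins on, measured in mouse bone marrow-derived macrophages (BMDM), which are phagocytes grown in culture from bone marrow. Members were picked by a rule on gene symbols that uses no measured value, although earlier results of these data were known when the rule was set. They are every gene whose symbol starts with Itga or Itgb, together with Icam1, Icam2, Icam4, Vcam1, Fermt1, Fermt2, Fermt3, Tln1 and Tln2, each read from 1 probe set named for that gene alone. This gave 40 genes of 19938 named genes on the array, of which 27 encode integrin subunits or the subunit-like protein of Itgb2l, 4 encode ligands and 5 encode talins or kindlins. The remaining 4, Itgb1bp1, Itgb1bp2, Itgb3bp and Itgbl1, match the rule by symbol but do not encode integrin subunits. One group of BMDM was left untreated, and the other 3 were exposed for 6 h to IFN gamma/LPS, to IL4/IL13 or to LPS/IL4/IL13. Each group had 2 arrays, 8 in all, hybridised with total RNA. The labels name no strain, age, dose or culture, and neither LPS nor IFN gamma was given by itself. The pair of groups with LPS therefore differ both in IFN gamma and in IL4/IL13.

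An integrin is a pair of 1 alpha and 1 beta chain that spans the membrane and ties matrix or a neighbouring cell to the actin cytoskeleton. Binding of talin and kindlin to the beta tail turns the pair from a resting to a ligand-binding shape. In macrophages the beta2 family serves adhesion to endothelium and uptake of complement-coated particles, the beta1 family serves matrix binding, and the alphaV pairs bind the RGD motif of matrix proteins, take up dying cells and, with beta8, release active TGF-beta from its latent form. LPS comes from the outer membrane of Gram-negative bacteria and triggers inflammatory signalling, IFN gamma drives classical activation, and IL4 with IL13 drives alternative activation.

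Values are log2 signals of the deposited table, in which array medians lay between 6.12 and 6.20. Changes are log2 fold changes ± SE with n = 2 arrays per group, from 1 limma fit over all named genes, and a gene is said to rise or fall where its limma p, adjusted by Benjamini-Hochberg over the 19938 genes, was under 0.05. The labels leave unstated whether replicate arrays represent independent cultures or mice, so these p-values measure the spread between the samples, which may be technical. The 7 macrophage markers checked were all above the dimmest 40% of named genes, while 28 of 49 markers of 10 other cell types were within it. Of the 40 members, 30 were above that level and 10 were not. The array came without detection calls, so a dim gene cannot be called absent. In RNA from a whole culture, a change in the number of cells that make a transcript and a change in RNA per cell cannot be told apart.

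RefSeq promoters (build GRCm38.p6) were matched for 28 of 40 members. Of these, Itgb8, Icam1 and Itga5 had the largest increases over untreated cells, and the 250 bases before each start are shown for that reason. Each is read 5′ to 3′ on the gene's strand, and capitals mark matches on either strand to the NF-kB-like pattern GGNNNTTCC. The windows are chr9:21015690-21015939, plus strand (Icam1), chr15:103366792-103367041, minus strand (Itga5) and chr12:119238277-119238526, minus strand (Itgb8).
Icam1: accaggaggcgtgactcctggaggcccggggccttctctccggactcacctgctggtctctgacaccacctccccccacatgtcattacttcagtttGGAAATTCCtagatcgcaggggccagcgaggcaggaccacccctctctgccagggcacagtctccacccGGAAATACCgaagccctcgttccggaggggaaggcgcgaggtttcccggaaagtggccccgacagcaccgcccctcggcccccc
Itga5: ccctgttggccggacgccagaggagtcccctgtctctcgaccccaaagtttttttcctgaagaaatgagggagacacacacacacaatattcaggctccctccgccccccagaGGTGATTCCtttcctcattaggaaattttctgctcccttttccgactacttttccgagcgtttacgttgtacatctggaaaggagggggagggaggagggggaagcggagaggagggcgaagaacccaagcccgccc
Itgb8: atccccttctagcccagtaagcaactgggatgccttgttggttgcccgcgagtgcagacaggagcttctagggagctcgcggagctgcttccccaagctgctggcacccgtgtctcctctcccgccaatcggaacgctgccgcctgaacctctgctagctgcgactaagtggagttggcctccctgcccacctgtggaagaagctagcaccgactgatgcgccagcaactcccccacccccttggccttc
The Icam1 window held 2 matches, GGAAATTCC beginning 153 bases before the start and GGAAATACC beginning 84 bases before it, and one to the STAT-like pattern TTCNNNGAA, TTCCCGGAA at 42 bases. The Itga5 window held GGTGATTCC at 137 bases, and the Itgb8 window held no match to this pattern. Over all 32851 promoter windows of this length 15.7% held the NF-kB-like pattern and 7.0% the STAT-like pattern, against 5 and 3 of the 30 member windows. The STAT6-like pattern, which has 1 more free base between the same ends, was in 5.9% of all windows and in those of Itga3 and Itgax. The PU.1-like pattern GAGGAA was in 23.3% of all windows and in 10 of the 30 member windows. A match describes letters only, and a missing match says only that these letters are not in the window.

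Against untreated cells, IFN gamma/LPS raised 16 of the 40 members and lowered 7. Over all named genes 23.6% rose and 28.4% fell. At least 2-fold, 7 members rose and 3 fell, where 1166 of all 19938 genes rose and 2230 fell (17% in either direction). LPS/IL4/IL13 raised 15 members and lowered 4, where 20.3% of all genes rose and 25.4% fell. At least 2-fold, 6 members rose and 2 fell under it, where 1032 of all genes rose and 1736 fell (13.9% in either direction). IL4/IL13 raised 5 members and lowered 9, where 7.83% of all genes rose and 12.3% fell. At least 2-fold, 0 members rose and 2 fell under it, where 213 of all genes rose and 274 fell (2.44% in either direction). These comparisons share the untreated arrays. The median member changed by 0.25 under IFN gamma/LPS, 0.15 under IL4/IL13 and 0.22 under LPS/IL4/IL13, beside medians of 0.10, 0.07 and 0.09 over all named genes. Without untreated array 1, the members that rose under LPS/IL4/IL13 numbered 9 and those that fell under IL4/IL13 numbered 5. The 5 members that rose under IL4/IL13 numbered 3 without untreated array 2 and 3 without either IL4/IL13 array. Without untreated array 1 or without IL4/IL13 array 2, 9 members changed in all under IL4/IL13, in place of 14. No call was made in any of the 6 comparisons for 12 of the 40 members, where the same held for 36.7% of all genes.

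**Figure D1:**
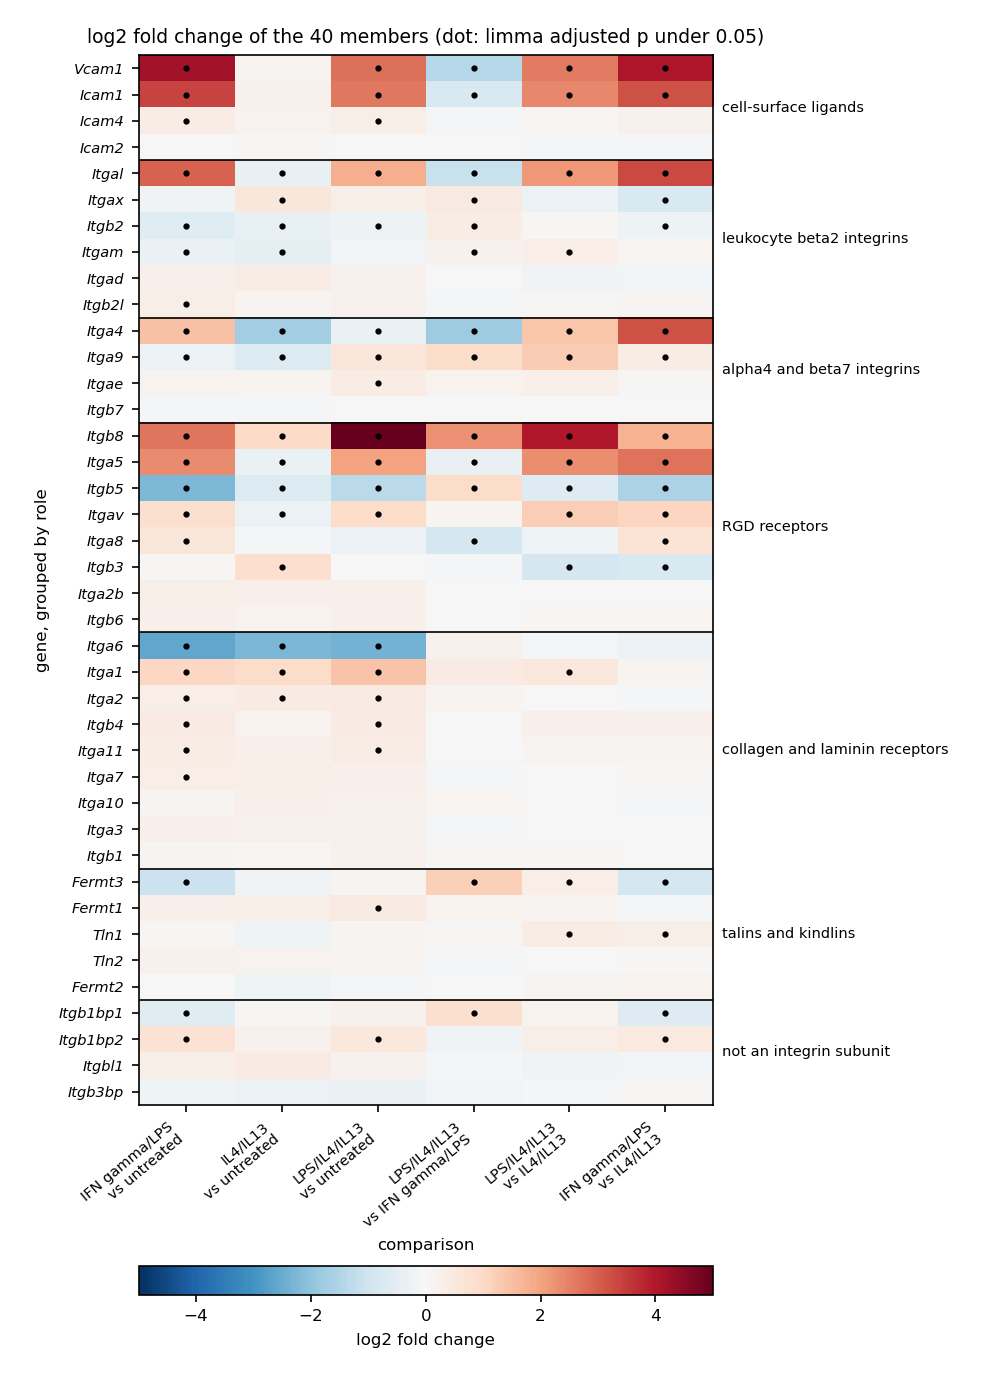
Heat map of the log2 fold change (colour) of the 40 members (vertical axis, grouped by role) in the 6 comparisons (horizontal axis), with a dot where the limma adjusted p was under 0.05. Vcam1, Icam1, Itgal, Itga5 and Itgb8 were high in both comparisons of an LPS group with untreated cells. Itga6 was low in all 3 comparisons with untreated cells.

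Among the ligands, the genes of the 2 inducible integrin ligands rose strongly wherever LPS was present. Icam1 encodes the ligand of the beta2 integrins LFA-1 and Mac-1. Its log2 signal was 9.17 and 9.08 in untreated cells, 12.46 and 12.58 under IFN gamma/LPS, 9.32 and 9.35 under IL4/IL13, and 11.75 on both arrays of LPS/IL4/IL13. The arrays of the 2 LPS groups stood apart from the rest and from each other. Icam1 rose 10.5-fold under IFN gamma/LPS (3.40 ± 0.07, adjusted p = 5.25e-12 in limma) and 6.17-fold under LPS/IL4/IL13 (2.62 ± 0.07). It was lower under LPS/IL4/IL13 than under IFN gamma/LPS (-0.77 ± 0.07, limma adjusted p = 8.59e-06), and it did not pass under IL4/IL13 (0.21 ± 0.07, limma adjusted p = 0.0596).

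Vcam1 encodes the ligand of alpha4beta1, best known on activated endothelium. It read 6.41 and 6.16 in untreated cells, 10.52 and 10.43 under IFN gamma/LPS, 6.36 and 6.48 under IL4/IL13, and 9.13 and 8.94 under LPS/IL4/IL13. Untreated and IL4/IL13 arrays overlapped, and both LPS groups lay far above them without overlap. The untreated mean was at percentile 49.8 of the untreated means of all named genes. It was not shown to be above background, so the folds against untreated cells are those of the signals. The increase was 18.3-fold under IFN gamma/LPS (4.19 ± 0.11, limma adjusted p = 3.08e-11) and 6.73-fold under LPS/IL4/IL13 (2.75 ± 0.11). The second was smaller than the first by 1.44 ± 0.11 on the log2 scale (limma adjusted p = 2.1e-06 for the difference). Of 5 endothelial markers, 3 of them among the dimmest 40% of named genes, 4 rose under IFN gamma/LPS and 2 under LPS/IL4/IL13. Over all named genes 23.6% and 20.3% rose. The endothelial markers differed in size and order of change. Their mean log2 signal was 5.25 to 5.26 in untreated cells, 6.24 on both IFN gamma/LPS arrays, 5.40 to 5.45 under IL4/IL13 and 5.86 to 5.88 under LPS/IL4/IL13. The VEGF receptor gene Kdr rose by 3.75 ± 0.14 and 1.72 ± 0.14. Cdh5, which marks endothelial junctions, rose by 0.40 ± 0.11 and 0.83 ± 0.11, while Emcn did not pass (0.10 ± 0.15 and 0.12 ± 0.15). Tek (0.37 ± 0.12) and Cldn5 (0.32 ± 0.12) rose under IFN gamma/LPS. Neither passed under LPS/IL4/IL13 (0.29 ± 0.12 and 0.12 ± 0.12). Of 6 fibroblast markers 1 rose under IFN gamma/LPS and 2 under LPS/IL4/IL13, with the decorin gene Dcn at 1.36 ± 0.11 and 1.75 ± 0.11. The part of either marker list in the Icam1 and Vcam1 results was not tested.

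The other ligand genes changed less. Icam4, the neighbour of Icam1 on the chromosome and best known as a red cell blood group antigen, rose by 0.38 ± 0.10 under IFN gamma/LPS and 0.29 ± 0.10 under LPS/IL4/IL13. The second call was lost in 5 of 17 alternative settings. Icam2, a ligand on resting endothelium and leukocytes, lay between 5.98 and 6.25 on all 8 arrays and passed in none of the comparisons.

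The beta2 family is the main leukocyte integrin family, and its chains did not move together. Itgal encodes the alpha chain of LFA-1, the receptor for ICAM1. Untreated arrays read 7.90 and 7.80, IFN gamma/LPS arrays 10.85 and 10.73, IL4/IL13 arrays 7.53 and 7.45, and LPS/IL4/IL13 arrays 9.69 and 9.64. No pair of groups overlapped, with IFN gamma/LPS highest and IL4/IL13 lowest. Itgal rose 7.67-fold under IFN gamma/LPS (2.94 ± 0.09, limma adjusted p = 7.92e-11) and 3.52-fold under LPS/IL4/IL13 (1.81 ± 0.09), and these differed by -1.12 ± 0.09 (limma adjusted p = 2.1e-06). Under IL4/IL13 alone it fell slightly (-0.36 ± 0.09, limma adjusted p = 0.0134), a call lost in 2 of 17 alternative settings.

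Itgb2, the beta chain that Itgal needs, fell instead. Its arrays read 11.33 and 11.26 untreated, 10.64 and 10.74 under IFN gamma/LPS, 10.95 and 10.91 under IL4/IL13, and 11.14 and 10.95 under LPS/IL4/IL13. The fall was largest under IFN gamma/LPS (-0.61 ± 0.08, limma adjusted p = 2.97e-05). It was -0.36 ± 0.08 under IL4/IL13 and -0.25 ± 0.08 under LPS/IL4/IL13, calls lost in 2 and in 5 of 17 alternative settings. Itgam encodes the CD11b chain of the complement receptor Mac-1. It fell by 0.35 ± 0.07 under IFN gamma/LPS and by 0.46 ± 0.07 under IL4/IL13, and LPS/IL4/IL13 did not pass (-0.13 ± 0.07, limma adjusted p = 0.142). All 8 Itgam values lay between 10.32 and 10.84. The 7 macrophage markers had mean log2 signals of 12.12 to 12.13 untreated, 12.09 to 12.12 under IFN gamma/LPS, 11.62 on both IL4/IL13 arrays and 12.05 to 12.11 under LPS/IL4/IL13. Behind these means single markers moved: 2 rose and 4 fell under IFN gamma/LPS, 3 fell under IL4/IL13, and 2 rose and 5 fell under LPS/IL4/IL13. Over all named genes 23.6% rose and 28.4% fell, 12.3% fell, and 20.3% rose and 25.4% fell, in that order. Csf1r, the receptor for the macrophage growth factor M-CSF, fell by 1.08 ± 0.05 under IFN gamma/LPS and by 0.82 ± 0.05 under LPS/IL4/IL13, while the Fc receptor gene Fcgr1 rose by 1.44 ± 0.06 and 1.63 ± 0.06. Under IL4/IL13 the markers that fell were Mertk (-1.51 ± 0.075), Cd14 (-1.42 ± 0.08) and Fcgr1 (-0.33 ± 0.06). Adgre1, Cd68, Csf1r and Lyz2 did not pass there (-0.045, -0.04, -0.06 and -0.085). The part of these markers in the Itgam and Itgb2 results was not tested.

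Itgax, the CD11c chain used as a dendritic cell and macrophage marker, went the other way under IL4/IL13. Its values were 8.07 and 7.94 untreated, 7.62 and 8.05 under IFN gamma/LPS, 8.64 and 8.54 under IL4/IL13, and 8.40 and 8.17 under LPS/IL4/IL13. It rose by 0.58 ± 0.14 under IL4/IL13 (limma adjusted p = 0.0104), a call lost in 4 of 17 alternative settings, and was lower under IFN gamma/LPS than under IL4/IL13 (-0.76 ± 0.14, limma adjusted p = 0.000599). Of 5 dendritic cell markers, 3 of them among the dimmest 40%, 1 rose under IL4/IL13, 4 under IFN gamma/LPS and 2 under LPS/IL4/IL13. Over all named genes 7.83%, 23.6% and 20.3% rose. These markers had mean log2 signals of 5.37 to 5.43 untreated, 5.65 to 5.72 under IL4/IL13, 6.36 to 6.39 under IFN gamma/LPS and 6.07 to 6.21 under LPS/IL4/IL13. Under IFN gamma/LPS Xcr1 (2.25 ± 0.14) and Clec9a (1.69 ± 0.14) rose most. Zbtb46 (0.39 ± 0.12) and Cd209a (0.33 ± 0.11) rose less there, and Flt3 did not pass (0.23 ± 0.16). The part of these markers in the Itgax result was not tested. Itgam, Itgax and Itgad are direct neighbours among coding genes on chromosome 7 of the RefSeq table. Itgad, the third, passed in none of the comparisons, and Itgb2l, a beta2-like gene, rose by 0.28 ± 0.11 under IFN gamma/LPS, a call lost in 8 of 17 alternative settings.

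Of the alpha4 and beta7 chains, Itga4 was the one member that rose at least 2-fold under one treatment and fell at least 2-fold under another. Its product pairs with beta1 to bind VCAM1. The arrays read 10.80 and 10.83 untreated, 12.24 and 12.31 under IFN gamma/LPS, 9.13 and 9.05 under IL4/IL13, and 10.54 and 10.44 under LPS/IL4/IL13. The 4 groups were fully separated, in the order IFN gamma/LPS, untreated, LPS/IL4/IL13, IL4/IL13. Itga4 rose 2.75-fold under IFN gamma/LPS (1.46 ± 0.07, limma adjusted p = 4.7e-09), fell 3.31-fold under IL4/IL13 (-1.72 ± 0.07, limma adjusted p = 1.72e-08) and stood slightly below untreated under LPS/IL4/IL13 (-0.32 ± 0.07, limma adjusted p = 0.0025). Against IL4/IL13, LPS/IL4/IL13 was 2.64-fold higher (1.40 ± 0.07), and against IFN gamma/LPS it was 3.45-fold lower (-1.78 ± 0.07). Vcam1 and the alpha chain of its receptor were both highest under IFN gamma/LPS, whereas under LPS/IL4/IL13 Vcam1 was above its untreated level and Itga4 was not.

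Itga9, whose product also binds VCAM1 and several matrix proteins, had a different order. It read 7.62 on both untreated arrays, 7.23 and 7.39 under IFN gamma/LPS, 6.99 and 6.92 under IL4/IL13, and 8.36 and 8.06 under LPS/IL4/IL13. LPS/IL4/IL13 was highest and IL4/IL13 lowest, without overlap. The change was -0.66 ± 0.12 under IL4/IL13 and 0.59 ± 0.12 under LPS/IL4/IL13 against untreated cells, and 1.25 ± 0.12 between these 2 treated groups (limma adjusted p = 2.43e-06). The fall under IFN gamma/LPS (-0.31 ± 0.12, limma adjusted p = 0.0419) was lost in 8 of 17 alternative settings. Itgb7, the beta chain of gut-homing integrins, passed in none of the comparisons. Its partner Itgae rose by 0.37 ± 0.14 under LPS/IL4/IL13 (limma adjusted p = 0.0489), a call lost in 8 alternative settings.

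**Figure D2:**
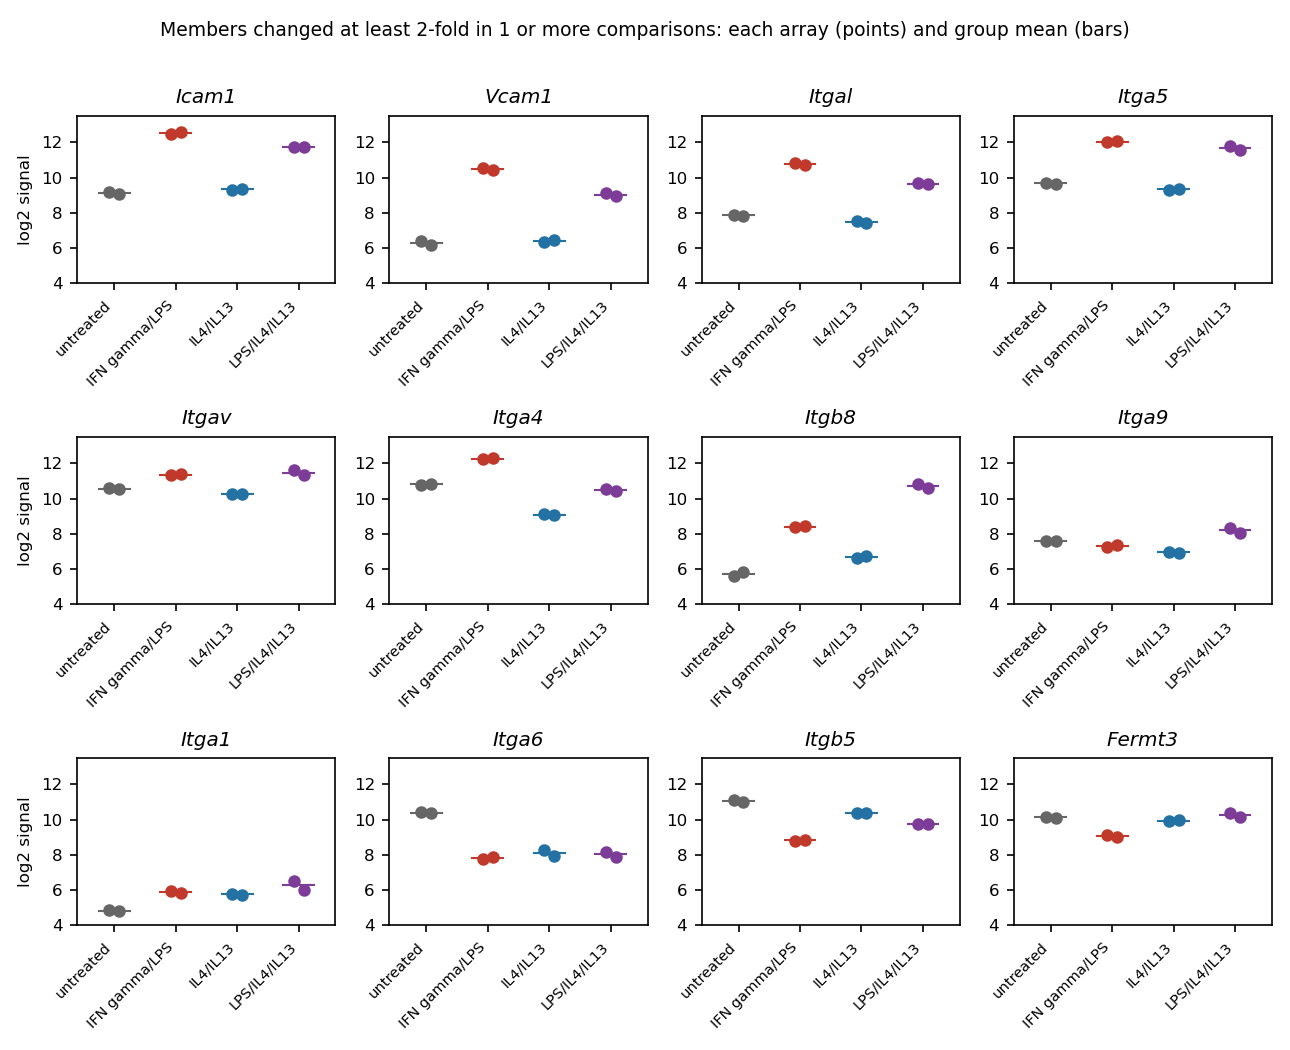
Log2 signal (vertical axis) of the 12 members that changed at least 2-fold in 1 or more of the 6 comparisons, for each array (points, 2 per group) and as group means (short horizontal lines) in the 4 groups (horizontal axis). Icam1, Vcam1, Itgal and Itga5 were highest under IFN gamma/LPS, Itgb8 and Itga9 under LPS/IL4/IL13, and Itga6 in untreated cells.

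The largest change of any member was in Itgb8, the beta chain that with alphaV releases active TGF-beta. Its arrays read 5.63 and 5.85 untreated, 8.38 and 8.45 under IFN gamma/LPS, 6.63 and 6.76 under IL4/IL13, and 10.85 and 10.58 under LPS/IL4/IL13. Every treated group lay above untreated cells, and no groups overlapped. The untreated mean was dim, at percentile 38.4 of the untreated means of all named genes, and was not shown to be above background, so the folds against untreated cells are those of the signals. Itgb8 rose 31.5-fold under LPS/IL4/IL13 (4.97 ± 0.12, limma adjusted p = 1.35e-11), 6.39-fold under IFN gamma/LPS (2.67 ± 0.12) and 1.94-fold under IL4/IL13 (0.95 ± 0.12). It was 4.92-fold higher under LPS/IL4/IL13 than under IFN gamma/LPS (2.30 ± 0.12, limma adjusted p = 6.8e-08) and 16.2-fold higher than under IL4/IL13 (4.02 ± 0.12).

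Other beta partners of alphaV moved differently. Itgb5, whose pair with alphaV binds vitronectin and takes part in uptake of dying cells, read 11.14 and 11.02 untreated, 8.77 and 8.87 under IFN gamma/LPS, 10.38 and 10.40 under IL4/IL13, and 9.76 and 9.73 under LPS/IL4/IL13. It fell in each treated group, and the 4 groups did not overlap. The fall was 4.79-fold under IFN gamma/LPS (-2.26 ± 0.08, limma adjusted p = 2.31e-10), 2.52-fold under LPS/IL4/IL13 (-1.33 ± 0.08) and 1.61-fold under IL4/IL13 (-0.69 ± 0.08). The level under LPS/IL4/IL13 was above that under IFN gamma/LPS by 0.92 ± 0.08 (limma adjusted p = 3.68e-06) and below that under IL4/IL13 (-0.65 ± 0.08). Itgb3, the beta chain of the vitronectin receptor and of the platelet fibrinogen receptor, read 6.34 and 6.40 untreated, 6.34 and 6.54 under IFN gamma/LPS, 7.20 on both IL4/IL13 arrays, and 6.34 and 6.35 under LPS/IL4/IL13. The IL4/IL13 arrays lay above the other 6. Itgb3 rose by 0.83 ± 0.11 under IL4/IL13 (limma adjusted p = 0.00014), and it was lower under LPS/IL4/IL13 than under IL4/IL13 (-0.85 ± 0.11, limma adjusted p = 2.99e-05). The platelet markers Pf4 (-0.31 ± 0.11, limma adjusted p = 0.0661), Ppbp (-0.29 ± 0.15), Gp5 (0.17 ± 0.11) and Gp9 (0.31 ± 0.11, limma adjusted p = 0.0635) did not pass under IL4/IL13. Itga2b, the platelet partner of Itgb3, did not pass there either (0.25 ± 0.12). The part of the platelet markers in the Itgb3 result was not tested.

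Itgav itself, the shared alpha chain, rose under both treatments with LPS. It read 10.58 and 10.53 untreated, 11.32 and 11.38 under IFN gamma/LPS, 10.27 and 10.25 under IL4/IL13, and 11.61 and 11.35 under LPS/IL4/IL13. The LPS groups overlapped each other and lay above the other groups. The increase was 0.80 ± 0.08 under IFN gamma/LPS and 0.92 ± 0.08 under LPS/IL4/IL13, which did not pass as different (0.13 ± 0.08, limma adjusted p = 0.383). The fall under IL4/IL13 (-0.29 ± 0.08, limma adjusted p = 0.0279) was lost in 6 of 17 alternative settings.

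Itga5, the alpha chain of the main fibronectin receptor, read 9.72 and 9.65 untreated, 12.02 and 12.07 under IFN gamma/LPS, 9.30 and 9.38 under IL4/IL13, and 11.79 and 11.57 under LPS/IL4/IL13. It was high in both LPS groups and lowest under IL4/IL13. The increase was 5.13-fold under IFN gamma/LPS (2.36 ± 0.08, limma adjusted p = 2.54e-10) and 3.99-fold under LPS/IL4/IL13 (2.00 ± 0.08), and the second was lower by a small margin (-0.36 ± 0.08, limma adjusted p = 0.00727). The fall under IL4/IL13 was -0.34 ± 0.08, a call lost in 2 of 17 alternative settings. Its partner Itgb1, the most widely shared beta chain, lay between 10.37 and 10.75 on all 8 arrays and passed in none of the comparisons. Itga8, a receptor chain for nephronectin, rose by 0.61 ± 0.14 under IFN gamma/LPS and was lower under LPS/IL4/IL13 than there (-0.90 ± 0.14, limma adjusted p = 0.000618), although its probe set was among the dimmest 40%. Itgb6, an epithelial beta chain, passed in none of the comparisons.

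**Figure D3:**
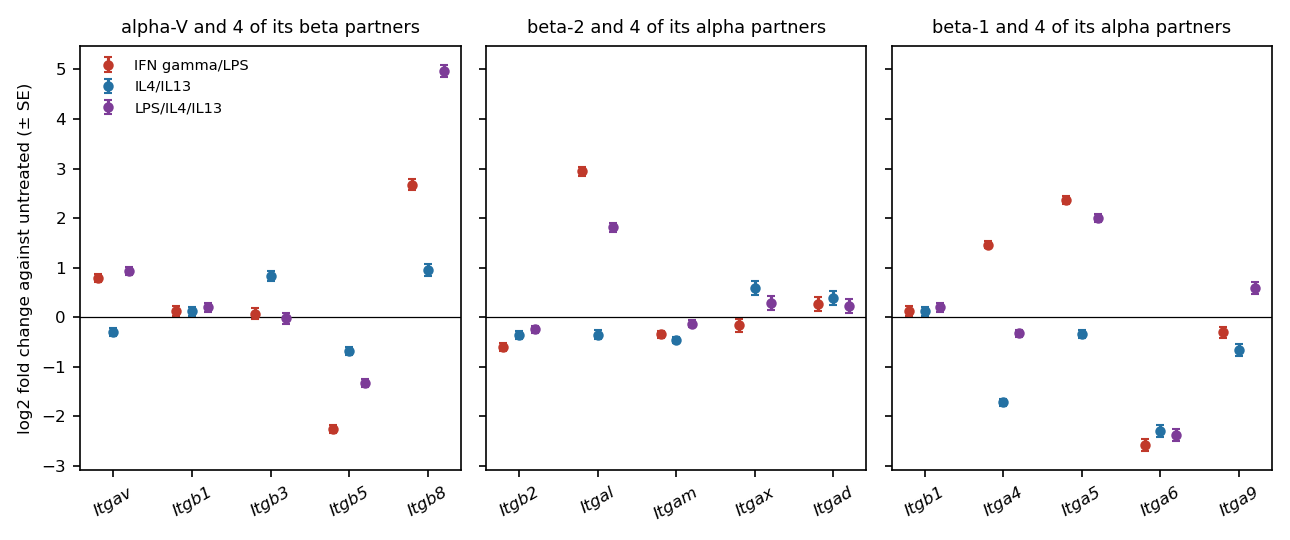
Log2 fold change against untreated cells ± SE (vertical axis, n = 2 arrays per group) of alphaV with 4 beta chains, beta2 with 4 alpha chains and beta1 with 4 alpha chains (horizontal axes), coloured by treatment. Itgb1 stayed within 0.20 of untreated in all 3 treatments while Itga4, Itga5 and Itga6 moved by more than 1 in at least 1 treatment.

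Laminin and collagen receptor chains were led by a fall in Itga6, the alpha chain of laminin receptors. It read 10.45 and 10.35 untreated, 7.79 and 7.85 under IFN gamma/LPS, 8.26 and 7.95 under IL4/IL13, and 8.16 and 7.88 under LPS/IL4/IL13. All 6 treated arrays lay below both untreated arrays. The fall was 5.98-fold under IFN gamma/LPS (-2.58 ± 0.12), 4.91-fold under IL4/IL13 (-2.29 ± 0.12) and 5.21-fold under LPS/IL4/IL13 (-2.38 ± 0.12, limma adjusted p = 1.01e-08). No difference between treated groups passed, at -0.28 ± 0.12 for IFN gamma/LPS against IL4/IL13 (limma adjusted p = 0.0881), 0.20 ± 0.12 for LPS/IL4/IL13 against IFN gamma/LPS and -0.08 ± 0.12 for LPS/IL4/IL13 against IL4/IL13.

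Itga1, a collagen receptor chain, rose under each treatment from a dim level. It read 4.84 and 4.82 untreated, 5.93 and 5.83 under IFN gamma/LPS, 5.78 and 5.72 under IL4/IL13, and 6.52 and 6.03 under LPS/IL4/IL13. Untreated arrays were lowest, and the widest gap between arrays of a group among the members, 0.49, was in its LPS/IL4/IL13 pair. The increases were 1.05 ± 0.15, 0.92 ± 0.15 and 1.44 ± 0.15 in that order of treatments. Its neighbour Itga2, another collagen receptor chain, rose by 0.33 ± 0.11, 0.42 ± 0.11 and 0.46 ± 0.11. Each of these Itga2 calls was lost in at least 1 alternative setting.

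Several further increases were small. Itga11 (0.38 ± 0.15 and 0.39 ± 0.15) and Itgb4 (0.42 ± 0.13 and 0.42 ± 0.13) rose under IFN gamma/LPS and LPS/IL4/IL13, and Itga7 (0.34 ± 0.12) rose under IFN gamma/LPS. Itga11 and Itga7, like Itga1 and Itga2, were among the dimmest 40% of named genes, and Itgb4 was not. Each of these 5 calls of Itga11, Itgb4 and Itga7 was lost in 3 to 9 alternative settings. Among the dimmest 40% of named genes as a whole the median change was 0.18 under IFN gamma/LPS, 0.14 under IL4/IL13 and 0.16 under LPS/IL4/IL13, and 19.3%, 3.71% and 13.6% rose. Falls there were fewer under each treatment, at 406, 163 and 398 of 7973 genes. Of the 10 members in that range 5, 2 and 5 rose and 0 fell. Itga3 and Itga10 passed in none of the comparisons.

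Talins and kindlins switch integrins on, and of these genes Fermt3 changed at least 2-fold. Fermt3 encodes kindlin-3, the kindlin of blood cells. Its arrays read 10.15 and 10.10 untreated, 9.13 and 9.01 under IFN gamma/LPS, 9.92 and 9.96 under IL4/IL13, and 10.35 and 10.17 under LPS/IL4/IL13. The IFN gamma/LPS arrays were the low ones. Fermt3 fell 2.08-fold there (-1.05 ± 0.09, limma adjusted p = 4.94e-07), and it was 2.28-fold higher under LPS/IL4/IL13 than under IFN gamma/LPS (1.19 ± 0.09, limma adjusted p = 1.01e-06). Neither IL4/IL13 (-0.18 ± 0.09, limma adjusted p = 0.156) nor LPS/IL4/IL13 (0.13 ± 0.09, limma adjusted p = 0.22) passed against untreated cells.

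Tln1, the talin of most cells, read 10.70 and 10.71 untreated, 10.79 and 10.83 under IFN gamma/LPS, 10.43 and 10.57 under IL4/IL13, and 10.88 and 10.83 under LPS/IL4/IL13. It passed in none of the comparisons with untreated cells and was higher in both LPS groups than under IL4/IL13, by 0.31 ± 0.07 for IFN gamma/LPS and 0.35 ± 0.07 for LPS/IL4/IL13. Fermt1, the epithelial kindlin, rose by 0.43 ± 0.13 under LPS/IL4/IL13 from a dim probe set, a call lost in 3 alternative settings. Fermt2 and Tln2 passed in none of the comparisons. Some genes with Itgb symbols do not encode integrin subunits. Of these, Itgb1bp1, which encodes a protein that binds the beta1 tail and opposes its activation, fell by 0.61 ± 0.12 under IFN gamma/LPS. It was higher under LPS/IL4/IL13 than there (0.81 ± 0.12). Itgb1bp2, a muscle chaperone gene, rose by 0.71 ± 0.12 and 0.54 ± 0.12 in the groups with LPS. Itgb3bp, a kinetochore gene, and Itgbl1 passed in none of the comparisons.

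Between the treated groups, LPS/IL4/IL13 had 8 members higher and 6 lower than IFN gamma/LPS, where 12.1% of all genes were higher and 7.62% lower. The 8 higher numbered 5 without IFN gamma/LPS array 1. At least 2-fold higher were Itgb8 and Fermt3, and at least 2-fold lower were Itga4, Vcam1 and Itgal. Against IL4/IL13, LPS/IL4/IL13 had 12 members higher and 2 lower, beside 14.1% and 22.6% of all genes, and the 2 lower were Itgb3 and Itgb5. IFN gamma/LPS had 11 members higher and 6 lower than IL4/IL13, beside 15.5% and 26.1% of all genes. In that comparison Vcam1 (4.05 ± 0.11), Itgal (3.30 ± 0.09), Icam1 (3.19 ± 0.07) and Itga4 (3.19 ± 0.07) differed most.

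The chains were also set side by side in 24 alpha and beta pairs that integrins are known to form. Both partners changed in the same direction in 2 under IFN gamma/LPS, 3 under IL4/IL13 and 1 under LPS/IL4/IL13. Partners changed in opposite directions in 3 pairs under each treatment. Only 1 partner changed in 15, 12 and 15 pairs, and neither did in 4, 6 and 5, in the same order of treatments. Itgb1, Itgb6 and Itgb7 passed in none of the comparisons, so no pair with them could agree or be opposed. Over all named genes, counted singly and not in pairs, 51.9%, 20.2% and 45.6% passed in either direction, in that order. No difference between partners was tested, and pairs share chains, so these counts are a description only. Itgav and Itgb8 was the pair that rose together under both treatments with LPS. Itgav with Itgb5, Itgal with Itgb2, and Itga6 with Itgb4 were opposed there. The Itgb2 call under LPS/IL4/IL13 and both Itgb4 calls were lost in some alternative settings.

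Other genes that work with integrins are given beside the shares of all named genes, of which 23.6% rose and 28.4% fell under IFN gamma/LPS, 7.83% and 12.3% under IL4/IL13, and 20.3% and 25.4% under LPS/IL4/IL13. Of 43 kinases, adaptors and actin linkers at integrin tails, 17 rose and 16 fell under IFN gamma/LPS, 11 rose and 16 fell under IL4/IL13, and 20 rose and 15 fell under LPS/IL4/IL13, with list medians of 0.08, -0.16 and 0.07. Src, a kinase of early adhesion signalling, rose by 3.09 ± 0.10, 0.49 ± 0.10 and 3.20 ± 0.10 in the same order. Rassf5, whose product RAPL links active Rap1 to LFA-1, fell by 2.67 ± 0.11, 0.80 ± 0.11 and 2.70 ± 0.11. Cytip, a cytohesin-binding restraint on beta2 adhesion, rose by 1.72 ± 0.17 under IFN gamma/LPS and fell by 0.64 ± 0.17 under IL4/IL13 and by 2.63 ± 0.17 under LPS/IL4/IL13. It was lower under LPS/IL4/IL13 than under IFN gamma/LPS (-4.35 ± 0.17). Fgr, a myeloid Src-family kinase, rose by 1.01 ± 0.15 under IL4/IL13 and 1.91 ± 0.15 under LPS/IL4/IL13, and did not pass under IFN gamma/LPS (0.21 ± 0.15).

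Selectins and other adhesion receptors had 11 of 23 up and 4 down under IFN gamma/LPS, 5 up and 2 down under IL4/IL13, and 10 up and 3 down under LPS/IL4/IL13, with list medians of 0.25, 0.18 and 0.31. Among all named genes 23.6% rose and 28.4% fell under IFN gamma/LPS, 7.83% and 12.3% under IL4/IL13, and 20.3% and 25.4% under LPS/IL4/IL13. The E-selectin gene Sele rose by 3.67 ± 0.13 under IFN gamma/LPS and 0.56 ± 0.13 under LPS/IL4/IL13. Pecam1, a junctional adhesion receptor of endothelium and leukocytes, rose by 2.27 ± 0.11 under IL4/IL13, fell by 0.28 ± 0.11 under IFN gamma/LPS and did not pass under LPS/IL4/IL13 (-0.05 ± 0.11). The E-cadherin gene Cdh1 rose by 1.08 ± 0.12 under IL4/IL13 and 1.92 ± 0.12 under LPS/IL4/IL13, and the poliovirus receptor gene Pvr rose by 1.94 ± 0.10 under IFN gamma/LPS and 1.51 ± 0.10 under LPS/IL4/IL13.

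Of 33 matrix and secreted ligands 7 rose and 10 fell under IFN gamma/LPS, 2 rose and 7 fell under IL4/IL13, and 7 rose and 10 fell under LPS/IL4/IL13, with list medians of -0.01, 0.07 and 0.10. Under IFN gamma/LPS and LPS/IL4/IL13 these counts are near the shares of all named genes that rose (23.6% and 20.3%) and fell (28.4% and 25.4%), which under IL4/IL13 were 7.83% and 12.3%. The tenascin gene Tnc, a ligand of alpha9 and alphaV integrins, rose by 1.78 ± 0.11 under IFN gamma/LPS and 0.90 ± 0.11 under LPS/IL4/IL13 and fell by 0.45 ± 0.11 under IL4/IL13. The thrombospondin gene Thbs1 fell by 1.48 ± 0.07 under IL4/IL13 and 0.95 ± 0.07 under LPS/IL4/IL13. The disintegrin gene Adam15 fell by 1.18 ± 0.08 under IFN gamma/LPS and by 1.26 ± 0.08 under LPS/IL4/IL13, with a fall of -0.28 ± 0.08 under IL4/IL13. Adam8 fell by 0.90 ± 0.07 under IFN gamma/LPS and rose by 0.21 ± 0.07 under IL4/IL13 and 0.36 ± 0.07 under LPS/IL4/IL13. Of 18 tetraspanins and other membrane partners, 6 rose and 10 fell under IFN gamma/LPS, 2 rose and 2 fell under IL4/IL13, and 6 rose and 8 fell under LPS/IL4/IL13, with list medians of -0.42, -0.05 and -0.14. The shares of all named genes that rose and fell were 23.6% and 28.4%, 7.83% and 12.3%, and 20.3% and 25.4%. The urokinase receptor gene Plaur rose by 3.14 ± 0.08 and 2.90 ± 0.08 in the groups with LPS and fell by 0.68 ± 0.08 under IL4/IL13. The caveolin gene Cav1 rose by 2.83 ± 0.11 under LPS/IL4/IL13, 0.63 ± 0.11 under IL4/IL13 and 0.54 ± 0.11 under IFN gamma/LPS. Tspan14 fell by 2.92 ± 0.10 under IFN gamma/LPS and by 1.36 ± 0.10 under LPS/IL4/IL13, and Tspan3 rose by 1.76 ± 0.09 and 0.52 ± 0.09.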

How the data were processed

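Total RNA of 8 BMDM samples was measured on Affymetrix mouse gene arrays. Each sample has its own column in the deposited table, whose values were read here as log2 signal from their range. The labels name the column a MAS5 signal. How the authors corrected background and normalized is not given in the sources used here, and no further log was taken. Of 35556 probe sets 21789 carried 1 symbol in the platform annotation, which can be old. The probe set with the highest mean stood for each of 19938 genes. Itgad alone among the members had more than 1, and 3 probe sets naming a member with another gene were left out.

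A limma 3.58.1 model (R 4.3.3) over the 4 groups used lmFit and eBayes with a mean-variance trend (4 residual and 7.55 prior degrees of freedom), with Benjamini-Hochberg adjustment over all named genes in each of 6 comparisons. The fit was run on simulated data with independent noise and changes of at least 2-fold in few genes. That run does not bear on smaller changes. The symbol rule for members uses no measured value, but it and the lists were chosen with earlier results of these data known. Every member could be named, those changed at least 2-fold with all array values, and up to 4 called genes per other list with the largest change from untreated. Promoters came from RefSeq (GRCm38.p6). Alternatives covered normalization, dim probe sets, variance, samples, replicate number, probe sets, adjustment and single arrays. No outside columns were present.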

Additional observations from a re-analysis of the deposited data

How the results depend on the processing

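Of 101 member calls, 74 held in every alternative setting that tested the gene, 27 were lost in at least 1 and 0 changed sign. There were 17 settings, but the filter for dim probe sets left out the 10 members among the dimmest 40%. Calls of those members were not tested in it. All 41 calls of at least 1 on the log2 scale held, as did 25 of 27 between 0.5 and 1, but 8 of 33 below 0.5. Members higher under IL4/IL13 than untreated numbered 5, and 8 with only the 4 arrays compared, 3 when adjusted over all probe sets, and 3 to 6 when 1 array was left out. Members lower there numbered 9, and 5 to 10 with 1 array left out (9 to 16 in both directions, against 14). For LPS/IL4/IL13 against untreated the 15 higher ranged from 9 to 14 and the 19 in all from 12 to 18 with 1 array left out. For LPS/IL4/IL13 against IFN gamma/LPS the 8 higher were 5 with only the 4 arrays compared and 5 to 10 with 1 array left out. Leaving 1 array in a group assumes that it varies like the others. Over all named genes, those higher under IL4/IL13 numbered 1561, and 2455 with only the 4 arrays compared, 933 adjusted over all probe sets and 806 to 1907 with 1 array left out, and the 2459 lower ranged from 1257 to 2969. Without untreated array 1 the higher genes fell from 4701 to 2936 under IFN gamma/LPS and from 4042 to 2602 under LPS/IL4/IL13. Against IFN gamma/LPS the 2407 higher under LPS/IL4/IL13 were 1488 with only the 4 arrays compared and 1558 without IFN gamma/LPS array 1. The cause of these shifts was not tested. The median of all named genes stood 0.105 above untreated under IFN gamma/LPS. With the replicate number as a block (replicate block) 16 members were higher and 7 lower under IFN gamma/LPS, 5 and 9 under IL4/IL13, and 14 and 4 under LPS/IL4/IL13. Deviations of same-numbered arrays correlated at -0.36 to 0.22 across genes, so the numbers were not taken to pair the arrays. With 2 arrays per group, their number limits the precision.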

Other observations

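Itgad had a second probe set of its own, not used in the comparisons above. It read 5.26 and 5.43 in untreated cells, 5.59 and 5.67 under IFN gamma/LPS, 5.73 and 5.6 under IL4/IL13, and 5.62 and 5.82 under LPS/IL4/IL13.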
